A study of Mus musculus with 11 samples.

Results

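Of the interleukin and interleukin receptor genes on the nCounter panel, 41 are described here in the lungs of mice that had carried a 4T1-luc2 tumor. They were taken by name: every gene of the table whose symbol is Il followed by a digit (59 of 770 genes), without 18 genes (Il1a, Il1b, Il1r1, Il1r2, Il1rap, Il1rn, Il1rl1, Il2, Il2ra, Il2rb, Il2rg, Il4ra, Il6, Il6ra, Il6st, Il10, Il11 and Il18). The rule used names and no measured value, although earlier results of these data were known when it was set. The lungs came from 11 female BALB/c mice, 8 weeks old when 4T1-luc2 cells, a BALB/c mammary carcinoma line that carries luciferase and spreads to the lung, were placed in the mammary fat pad on day 0. Tumors were resected on day 13 in all mice. The control group (5 mice, numbered 3, 4, 6, 7 and 8) received the isotype antibody hIgG1, and the other group (6 mice, numbered 9, 10, 13, 14, 15 and 16) the agonist antibody αChemR23, both at 1 mg/kg 3 times a week from day 7 to day 28. No group without a tumor and no untreated group is among the samples. Each lung was digested into single cells before RNA extraction and gave 1 sample. Lungs were taken when a mouse reached its endpoint, and the sources used here do not give that day, so that it cannot be told apart from treatment.

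Interleukins are secreted proteins by which immune and tissue cells act on each other through receptors of several chains. Most of the receptors described here signal through JAK kinases and STAT factors, the IL-17 receptors through the adaptor Act1, and the IL-18 and IL-36 receptors through Myd88. Many interleukins are made in short bursts by few activated lymphocytes, while receptor chains are carried continuously by many cells, so that in a whole lung the message of a receptor is often easier to measure than that of its ligand.

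The deposited values are log2 normalized counts, where a count is a probe bound to an RNA molecule and not an amplified read. The lowest value differed from mouse to mouse, between 8.85 and 16.2 normalized counts (8.0 to 16.4 recovered raw counts), and a gene listed there has only an upper bound. The 20 housekeeping genes had a mean of 9.01 log2 normalized counts in every mouse. The estimated total was 590735 to 680599 raw counts per mouse, and the 41 genes took 0.72 to 0.83% of the normalized total. As for tissue identity, the 6 endothelial markers, among them Pecam1 and Cdh5, scored 11.4 to 11.7 (mean log2 value) in all mice, and the 7 macrophage markers, among them the alveolar macrophage receptor Marco, 6.91 to 7.38. In hIgG1 mouse 8 the T cell marker score was 7.08, while the other 10 mice lay between 5.18 and 6.07. In a whole lung, fewer cells of a type and less RNA per cell cannot be told apart.

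Of the 41 genes, 19 were above the lowest value in all 11 mice, 21 in some, and 1, Il24, in none. The highest levels were those of Il18r1, the ligand-binding chain of the IL-18 receptor, and Il13ra1, a chain shared by the receptors of IL-4 and IL-13. In the order of mice given above, Il18r1 was at 10.15, 10.21, 10.62, 10.42 and 10.30 log2 normalized counts with hIgG1 and at 10.59, 10.43, 10.16, 10.36, 10.27 and 10.13 with αChemR23. Il13ra1 was at 10.35, 10.14, 10.08, 10.47 and 9.92 and at 10.07, 10.43, 10.41, 9.89, 10.01 and 10.56. These genes had means of 10.33 and 10.21 over the 11 mice, a gap smaller than their spread between mice (SD 0.17 and 0.24), so that their order is not settled. Il17ra, the chain common to most IL-17 receptors, followed at 9.10, 9.11, 9.02, 9.31 and 8.71 with hIgG1 and 9.01, 9.33, 9.17, 8.52, 8.66 and 9.41 with αChemR23. It lay below both leading genes in every mouse.
Il16, a chemoattractant of CD4+ cells, was the highest of the ligands. Its levels were 8.25, 8.06, 7.93, 8.06 and 8.11 log2 normalized counts with hIgG1 and 7.95, 8.12, 7.97, 7.64, 7.69 and 8.55 with αChemR23. Il34, which activates the M-CSF receptor Csf1r, was the second ligand, at 7.16, 7.37, 7.25, 7.33 and 6.95 and at 7.09, 6.79, 7.42, 7.18, 7.15 and 6.86. Between them lay Il7r, the IL-7 receptor chain of T cells and innate lymphoid cells. It was at 7.47, 6.94, 7.23, 8.06 and 7.54 with hIgG1 and 7.41, 6.85, 6.75, 6.85, 7.06 and 7.85 with αChemR23. Il7r varied most among the genes over 100 normalized counts, and its high mice (hIgG1 mouse 7 and αChemR23 mouse 16) belonged to different groups. Il34, Il7r, Il10ra and Il18rap, with means of 7.27 to 7.05, did not differ in order beyond their spread. Below them, Il3ra, Il12a, Il15, Il1rl2, Il11ra1, Il21r, Il7, Il22ra2, Il15ra, Il12rb2, Il17b and Il25 ran from a mean of 6.65 down to 4.35. Probes differ in how well they bind, so that this is an order of probe counts and not of molecules.

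**Figure D1:**
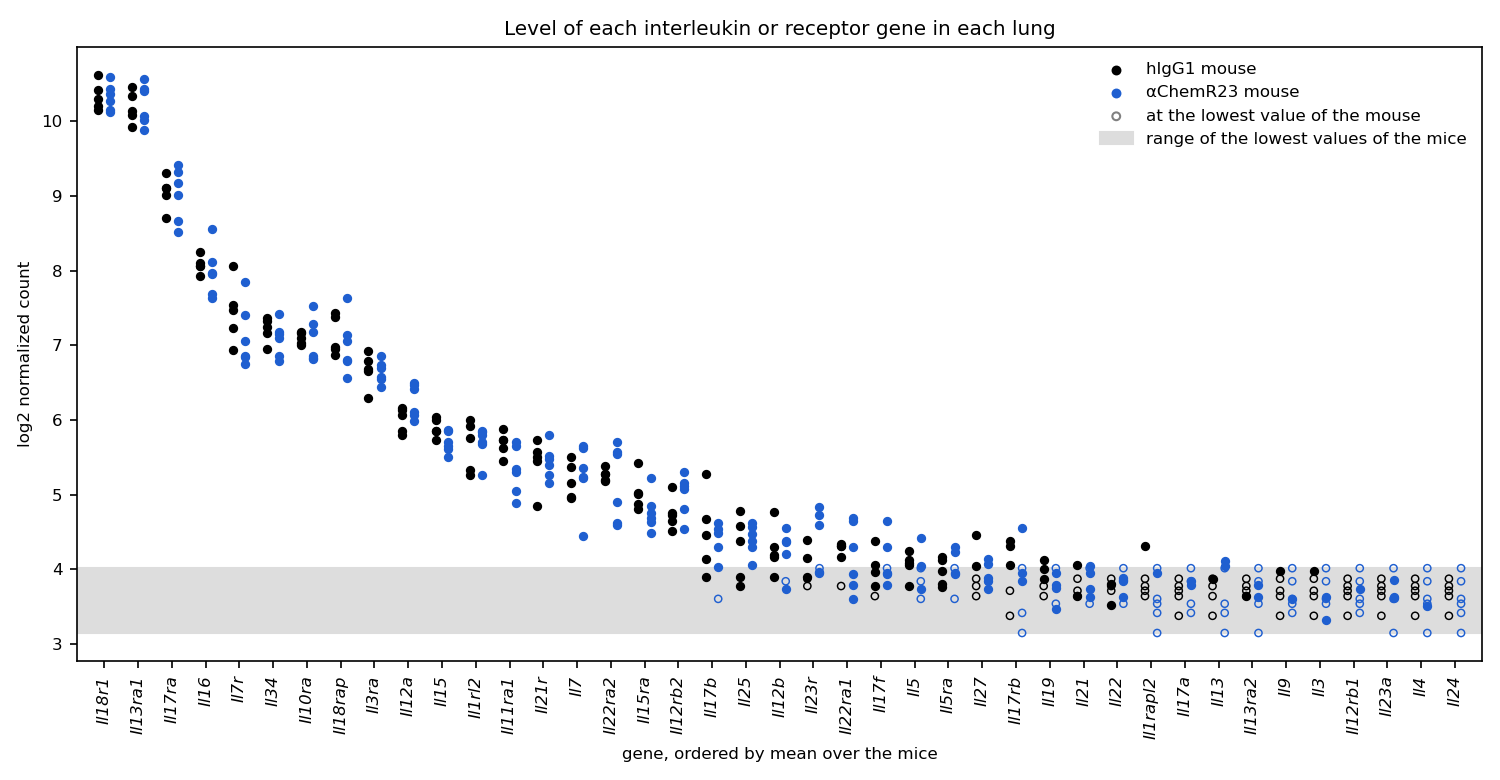
Level of each of the 41 genes in each lung (y axis, log2 normalized counts; x axis, genes ordered by their mean), with 5 hIgG1 mice in black and 6 αChemR23 mice in blue. Open points lie at the lowest value of their mouse, and the grey band spans these lowest values: Il18r1 and Il13ra1 stand near 10, and the points of the right part of the plot fall into or next to the band.

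At the lower end stood cytokines and receptor chains alike. Il24, a cytokine of the IL-10 family, was at the lowest value in all 11 mice. Il4, the founding type 2 cytokine, was above it in αChemR23 mouse 13 only, at 11.4 normalized counts, and Il12rb1, a chain of the IL-12 and IL-23 receptors, in αChemR23 mouse 16 only. Il9 was above it in hIgG1 mouse 8 and αChemR23 mouse 16. Il17a, the main cytokine of Th17 cells, was above it in αChemR23 mice 14 and 16, at 13.8 and 14.4 normalized counts, under the limit of 16.2 in αChemR23 mouse 15. Il1rapl2, an orphan receptor of the IL-1 receptor family, was above it in hIgG1 mouse 7 and αChemR23 mouse 9. In these 5 genes at most 2 of the 11 mice had a level that could be read.
Il23a, Il3, Il13ra2 and Il13 were above the lowest value in 3 mice each. For Il23a, the p19 subunit of IL-23, these were αChemR23 mice 9, 10 and 13, and in mouse 13 alone by over 0.1 on the log2 scale. For Il3, a growth factor of mast cells and basophils, they were hIgG1 mouse 8 and αChemR23 mice 13 and 16. For the decoy receptor Il13ra2 they were hIgG1 mouse 7 and αChemR23 mice 13 and 14, and for Il13 hIgG1 mouse 3 and αChemR23 mice 9 and 14. The limits themselves differed between mice, from 16.2 normalized counts in αChemR23 mouse 15 to 8.85 in αChemR23 mouse 16, so that a count above the limit in mouse 16 could be hidden in mouse 15.
Another 11 genes under a mean of 20 normalized counts were above the lowest value in most mice. Il22, Il21 and Il17rb were at it in 5 mice each (mice 3, 6, 8, 10 and 15 for Il22, mice 3, 4, 6, 10 and 15 for Il21, and mice 3, 7, 13, 15 and 16 for Il17rb). Il19 and Il27 were at it in 4 mice each (mice 4, 8, 10 and 15, and mice 4, 6, 8 and 9). Il5 was at it in αChemR23 mice 9, 14 and 15, Il5ra in αChemR23 mice 14 and 15, Il23r in mice 6, 8 and 15, and Il17f in mice 4 and 15. Il22ra1 was at it in hIgG1 mouse 8 and Il12b in αChemR23 mouse 9. αChemR23 mouse 15, with the highest limit, thus had 18 of the 41 genes at its lowest value, and αChemR23 mice 13 and 16, with low limits, had 7 each.
Of these weak genes, Il12b, the p40 subunit of IL-12 and IL-23, had the highest mean, at 19.0 normalized counts. Il23r, the receptor of IL-23, reached 28.6 normalized counts in αChemR23 mouse 10, 26.6 in mouse 16 and 24.1 in mouse 9, and 21.1 in its highest hIgG1 mouse. The other 3 αChemR23 mice, at 15.5 to 16.2, lay among the hIgG1 mice. These 21 genes were not tested.

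**Figure D2:**
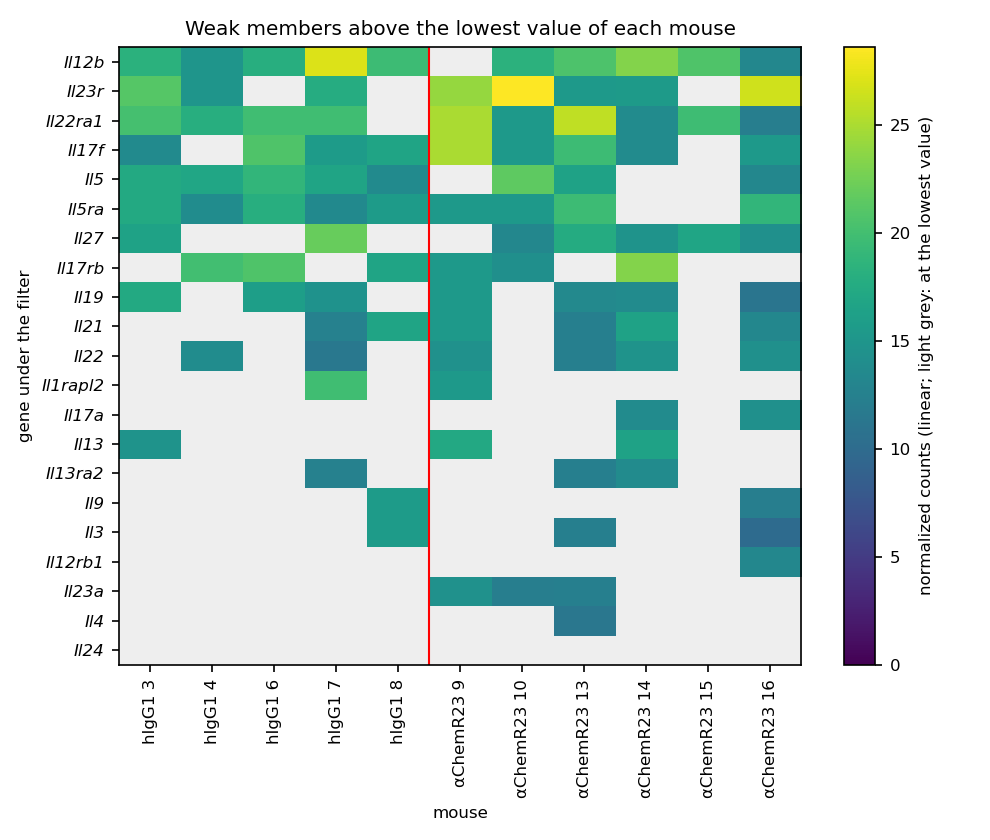
The 21 genes with a mean under 20 normalized counts (rows) in each mouse (columns, hIgG1 left and αChemR23 right of the red line), colored by normalized counts on a linear scale. Light grey cells lie at the lowest value of the mouse: Il24 is grey in all mice, and the grey column of αChemR23 mouse 15 reflects its limit of 16.2 normalized counts.

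The comparison of αChemR23 with hIgG1 lungs asked which of these genes differed between the 2 antibody treatments. The 657 genes that averaged 20 normalized counts or more, 20 of the 41 genes among them, were fitted with limma on log2 values. Of these 20 genes, 0 passed an adjusted p of 0.05, as did 0 of all 657 (0.0%), and the smallest adjusted p among the 20 was 0.483. At an unadjusted p under 0.05 there was 1 gene, the IL-11 receptor chain Il11ra1, lower in αChemR23 mice, where 9.89% of all tested genes reached that p (7.15% higher and 2.74% lower). Limma voom on recovered counts also gave 1 such gene and an exact Mann-Whitney test 0, both with 0 after adjustment. A higher mean in αChemR23 mice was found for 7 of the 20 genes and for 57.4% of all tested genes. The median log2 difference was -0.03 over the 20 genes and 0.03 over all tested genes. The groups overlapped for all 20 genes, while 0.761% of the tested genes had all αChemR23 mice above and 0.304% all below the hIgG1 mice. The 95% interval of limma lay within a 2-fold change in both directions for the 20 genes, and within 1.5-fold for 15. Of the 20 genes, 1, Il17b, had a mean under 20 in 1 group, and it was at the lowest value in αChemR23 mouse 14.

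**Figure D3:**
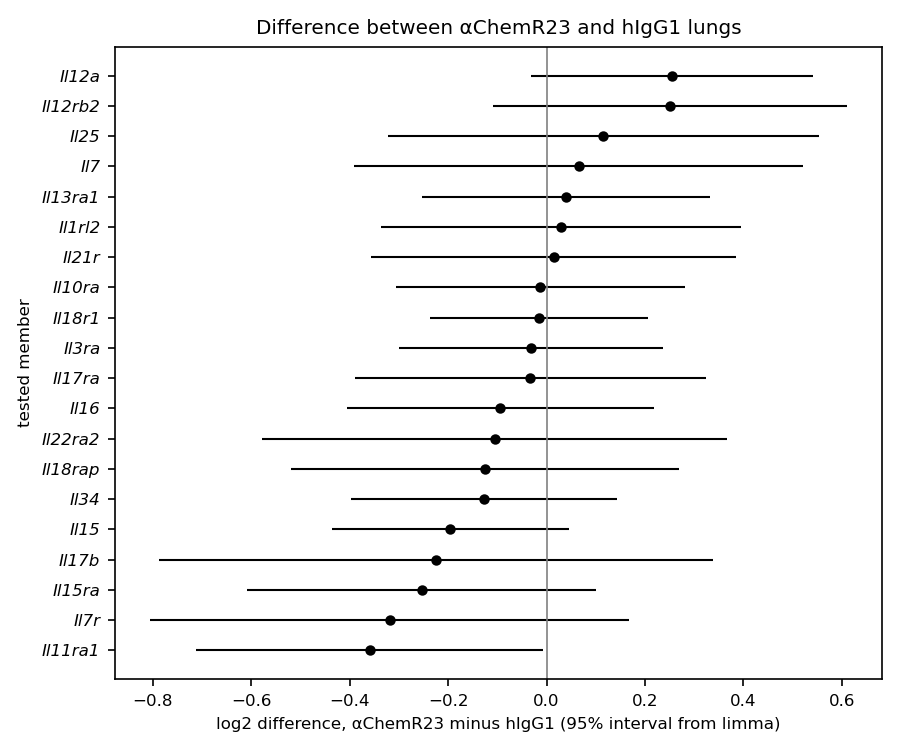
Log2 difference of the 20 tested genes, αChemR23 minus hIgG1 (x axis, points), with the 95% interval from limma (bars; 5 hIgG1 and 6 αChemR23 mice). The points run from -0.36 (Il11ra1) to 0.26 (Il12a), and all bars but that of Il11ra1 cross 0.

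Among receptors of the gp130 family, Il11ra1 binds IL-11 and is known from stromal cells. It was at 5.87, 5.45, 5.62, 5.73 and 5.73 log2 normalized counts with hIgG1 and at 5.30, 5.65, 5.05, 5.35, 4.89 and 5.70 with αChemR23. The 4 lowest mice were αChemR23 mice 9, 13, 14 and 15, while αChemR23 mice 10 and 16 lay inside the hIgG1 range. The means were 5.68 ± 0.16 (SD, n = 5) for hIgG1 and 5.32 ± 0.32 (SD, n = 6) for αChemR23, a log2 difference of -0.36 (SE 0.16, limma adjusted p = 0.483). Its unadjusted p of 0.0464 came with a spread of 1.21 times the counting error, and it rose to 0.0520 with an exact Mann-Whitney test and 0.0688 with the neutrophil marker score as a covariate. Without hIgG1 mouse 3, 6, 7 or 8 or αChemR23 mouse 9, 13, 14 or 15 it was 0.0619 to 0.106. The score of the epithelium and carcinoma markers (Epcam, Cdh1, Muc1 and Spp1), which is given with Il11ra1 below, ran from 9.73 to 10.05 with hIgG1 and from 9.95 to 10.34 with αChemR23.
The IL-12 group drives interferon gamma in T and NK cells. Il12a, the p35 subunit of IL-12, was at 6.06, 5.85, 5.80, 6.13 and 6.16 log2 normalized counts with hIgG1 and 6.47, 5.99, 6.49, 6.42, 6.07 and 6.10 with αChemR23. αChemR23 mice 9, 13 and 14 lay above all hIgG1 mice and the other 3 among them. The log2 difference was 0.26 (SE 0.13, limma adjusted p = 0.495). The B cell marker score was 5.53 to 6.12 in hIgG1 and 5.74 to 6.96 in αChemR23 mice, highest in αChemR23 mice 9 and 14. Il12rb2, the signaling chain of the IL-12 receptor, was at 4.52, 4.75, 4.73, 4.65 and 5.10 with hIgG1 and 5.30, 5.16, 4.80, 5.08, 5.11 and 4.54 with αChemR23. αChemR23 mouse 9 was the highest, and hIgG1 mouse 8 was the highest control. The difference was 0.25 (SE 0.17, limma adjusted p = 0.562), and 0.34 without hIgG1 mouse 8. The spread of Il12rb2 between mice was not above its counting error (0.95 times), at a mean of 30.6 raw counts.
IL-18 acts with IL-12, and its receptor has the chains Il18r1 and Il18rap. Il18rap, the signaling accessory chain, was at 7.37, 6.95, 6.98, 7.44 and 6.87 log2 normalized counts with hIgG1 and 6.79, 7.14, 7.06, 6.56, 6.80 and 7.63 with αChemR23 (log2 difference -0.13, SE 0.18, limma adjusted p = 0.855). αChemR23 mouse 16 was the highest and αChemR23 mouse 14 the lowest of all mice. Il18r1 differed by -0.02 (SE 0.10, limma adjusted p = 0.965), with αChemR23 mouse 16 the lowest of all mice. Il21r, the receptor of the T helper cytokine IL-21, differed by 0.01 (95% interval -0.36 to 0.38). Of the 9 genes of this group in the table, 5 were tested, their mean being higher under αChemR23 for 3 and lower for 2 (median 0.01).

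**Figure D4:**
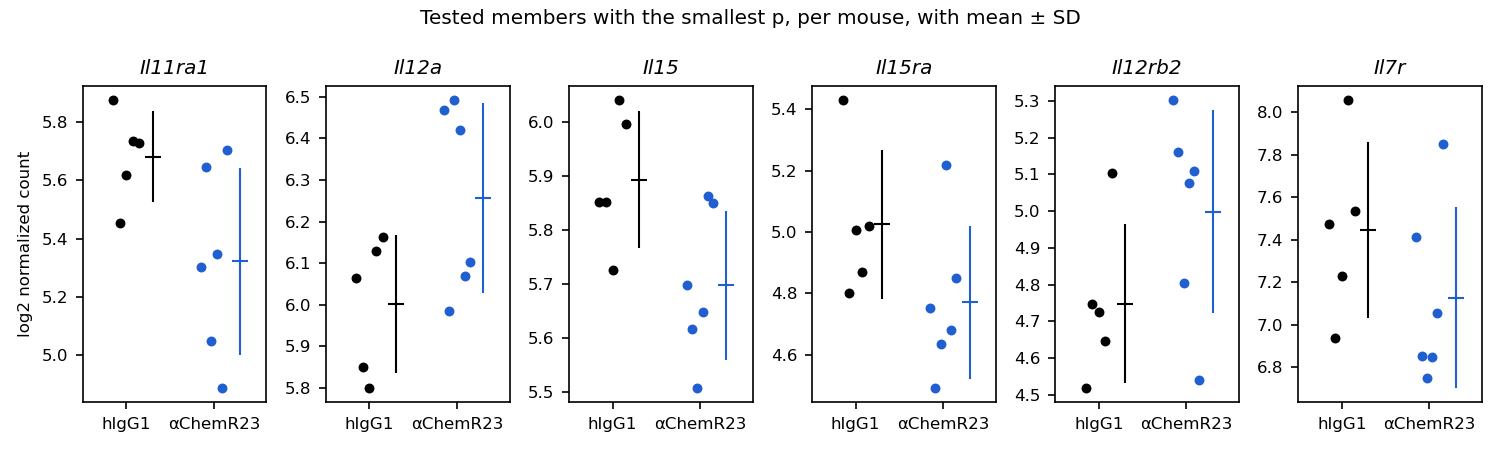
The 6 tested genes with the smallest unadjusted p, 1 point per mouse (y axis, log2 normalized counts), with the mean ± SD beside the points (hIgG1 black, n = 5; αChemR23 blue, n = 6). The groups overlap in every panel, and the y axes differ between panels and do not start at 0.

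The cytokines of the common gamma chain keep lymphocytes alive, and 3 of the 5 tested genes of this group had a lower mean in αChemR23 mice (median -0.20). Il15, which sustains NK and memory CD8+ cells, was at 5.85, 5.85, 5.73, 6.04 and 6.0 log2 normalized counts with hIgG1 and 5.70, 5.62, 5.51, 5.65, 5.86 and 5.85 with αChemR23. αChemR23 mice 9, 10, 13 and 14 lay below all hIgG1 mice. The log2 difference was -0.20 (SE 0.11, limma adjusted p = 0.495). Il15ra, which presents IL-15 to neighboring cells, was at 5.43, 4.80, 5.01, 4.87 and 5.02 and at 4.75, 4.49, 4.63, 5.22, 4.68 and 4.85. Its difference was -0.25 (SE 0.16, limma adjusted p = 0.557), with αChemR23 mouse 14 the second highest of all mice, and it was -0.15 without hIgG1 mouse 3, the highest. The spread of Il15 and of Il15ra between mice was not above their counting error (0.69 and 0.93 times), at means of 56.4 and 30.8 raw counts.
Il7r had means of 7.45 ± 0.41 (SD, n = 5) for hIgG1 and 7.13 ± 0.43 (SD, n = 6) for αChemR23, a difference of -0.32 (SE 0.22, limma adjusted p = 0.589). Its 95% interval, -0.81 to 0.17, was the widest of the tested genes over 100 normalized counts, and its spread was 3.59 times the counting error. Leaving out the highest mouse of either group moved the difference, to -0.17 for hIgG1 mouse 7 and to -0.46 for αChemR23 mouse 16. Il7 itself, made by stromal and epithelial cells, differed by 0.07 (95% interval -0.39 to 0.52). Il4, Il9 and Il21 of this group were not tested.

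In the IL-17 and IL-23 group, 4 of 11 genes were tested, and αChemR23 had the higher mean for 1 and the lower mean for 3 (median -0.07). Il17ra differed by -0.03 (SE 0.16, limma adjusted p = 0.965). Il17b, a member of the IL-17 family that binds Il17rb, was at 4.46, 3.90, 4.67, 5.27 and 4.14 log2 normalized counts with hIgG1 and 4.03, 4.49, 4.30, 3.60, 4.62 and 4.54 with αChemR23. hIgG1 mouse 7 was the highest, and the difference of -0.22 (SE 0.26, limma adjusted p = 0.801) was smaller than the spread within hIgG1 mice (SD 0.53). It was -0.03 without hIgG1 mouse 7, -0.37 without hIgG1 mouse 4 and -0.09 without αChemR23 mouse 14. Il17b averaged 23.7 normalized counts in hIgG1 and 19.8 in αChemR23 mice, so that it met the filter of 20 only through hIgG1. Its lower mean, counted among the 3 above, is thus not independent of the filter. Il25, which also binds Il17rb and induces type 2 cytokines, was at 4.58, 3.90, 4.78, 4.38 and 3.78 and at 4.47, 4.62, 4.57, 4.38, 4.30 and 4.06 (log2 difference 0.12, SE 0.20, limma adjusted p = 0.879). hIgG1 mouse 8 was within 0.1 of its lowest value. Il22ra2, a soluble receptor that neutralizes IL-22, was at 5.2, 5.28, 5.38, 5.27 and 5.18 in hIgG1 mice and 4.90, 5.70, 5.57, 4.60, 4.62 and 5.54 under αChemR23. The hIgG1 mice stood close together (SD 0.08) and the αChemR23 mice fell on both sides of them (SD 0.51), with mice 9, 14 and 15 below and mice 10, 13 and 16 above. The counting error of Il22ra2 was 0.24 on the log2 scale, at a mean of 38.2 raw counts. It was thus larger than the SD of the hIgG1 mice, and a difference in spread between the groups was not tested. The difference of the means was -0.10 (SE 0.22, limma adjusted p = 0.920).
Of the 10 genes of the type 2 group, 3 were tested, the mean being higher for 2 and lower for 1 (median 0.04). They were Il25, Il13ra1, which differed by 0.04 (95% interval -0.25 to 0.33), and Il3ra, the IL-3 receptor chain of basophils, which differed by -0.03 (95% interval -0.30 to 0.24). Of the 6 genes of the IL-10 family, 2 were tested, both with a lower mean (median -0.06). Il10ra, the ligand-binding chain of the IL-10 receptor, differed by -0.01 (95% interval -0.31 to 0.28). Of the remaining 5 genes, 4 were tested, the mean being higher for 1 and lower for 3 (median -0.11). Il34 had a difference of -0.13 (SE 0.12, limma adjusted p = 0.736) and Il16 one of -0.09 (SE 0.14, limma adjusted p = 0.863). Il1rl2, the IL-36 receptor, differed by 0.03 (95% interval -0.34 to 0.40).

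Some of the genes ran together with cell type markers from mouse to mouse. Of the 20 genes, 6 varied between mice by at least 2 times their counting error, and 4 of these (Il13ra1, Il17ra, Il16 and Il18rap) ran with the markers of neutrophils, cells that expand strongly in mice with 4T1 tumors. The neutrophil list holds 7 genes (S100a8, Csf3r, Cxcr2, Camp, Ltf, Mmp9 and Fpr2), of which 7 were tested and 0 were at the lowest value in any mouse. Their summed level ran from 75176 to 128296 normalized counts with hIgG1 and from 36753 to 162818 with αChemR23. The score, the mean log2 value of the list, was 10.91, 10.53, 10.41, 10.95 and 10.42 with hIgG1 and 10.27, 11.07, 10.62, 9.41, 10.09 and 11.25 with αChemR23. αChemR23 mouse 16 was thus the highest and αChemR23 mouse 14 the lowest of all 11 mice, and the same mice were the highest and lowest for Il13ra1 and Il16.
Each of the 20 tested genes was set against 8 marker lists over the 11 mice, 160 relations in all, with permutation tests. Of these, 7 passed an adjusted p of 0.05 by Pearson's r, 5 of them with the neutrophil score. Il17ra had r = 0.910 with the neutrophil score (permutation p = 5e-05, adjusted p = 0.00480) and rho = 0.946 (permutation p = 7e-05, adjusted p = 0.00640), and r was 0.828 with the 2 mice most distant from the median score left out. Il18rap had r = 0.912 with the neutrophil score (permutation p = 6e-05, adjusted p = 0.00480) and rho = 0.936 (permutation p = 8e-05, adjusted p = 0.00640), and r was 0.872 with the 2 mice most distant from the median score left out. Both genes were highest in αChemR23 mouse 16 and lowest in αChemR23 mouse 14, as the score was. Il13ra1 had r = 0.879 with the neutrophil score (permutation p = 0.000100, adjusted p = 0.00533) and rho = 0.927 (permutation p = 0.000120, adjusted p = 0.00640), and r was 0.860 with the 2 mice most distant from the median score left out. Il16 had r = 0.869 with the neutrophil score (permutation p = 0.000760, adjusted p = 0.0237) and rho = 0.864 (permutation p = 0.00110, adjusted p = 0.0352), and r was 0.764 with the 2 mice most distant from the median score left out. Il22ra2 had r = 0.829 with the neutrophil score (permutation p = 0.000890, adjusted p = 0.0237) and rho = 0.773 (permutation p = 0.00750, adjusted p = 0.150), and r was 0.731 with the 2 mice most distant from the median score left out. Il22ra2 did not pass by rank. Within the 6 αChemR23 mice alone, r was 0.966 for Il17ra (exact permutation p = 0.00139), 0.922 for Il18rap (p = 0.0139), 0.955 for Il13ra1 (p = 0.00278), 0.897 for Il16 (p = 0.0167) and 0.896 for Il22ra2 (p = 0.0153). The 5 genes were picked over 11 mice that include these 6, so these unadjusted p-values are no separate support. That of Il17ra is the smallest this test can give for 6 mice. For the 5 hIgG1 mice no r was computed, so whether the relations hold among them alone was not tested. Among these mice Il17ra, Il18rap and Il13ra1 were highest in mouse 7, as the score was, and Il16 in mouse 3. Il22ra2 was highest in mouse 6, which had the lowest score of the hIgG1 mice. With the group means removed, r over the 11 mice was 0.824 to 0.918 for these 5 genes.
The neutrophil score also ran with the total of normalized counts (r = 0.899 over the 11 mice) and with the scaling step of each mouse (r = 0.750), so that the relations were recomputed under other scalings. That total, 526091 to 715706 per mouse, includes the 7 list genes, whose sum ran from 36753 to 162818. Part of the r with the total was thus built in. With equal medians or with quantile normalization, Il17ra and Il18rap passed, while r fell to 0.787 and 0.765 for Il13ra1, 0.794 and 0.823 for Il16 and 0.764 and 0.750 for Il22ra2, none of which passed. Of all tested genes outside the list, 10.3% had an r of at least 0.8 with the neutrophil score, against 5 of the 20 genes. Leaving out a mouse kept Il17ra, Il18rap and Il13ra1 past the threshold each time. Il16 did not pass without hIgG1 mouse 3 (r = 0.860) or αChemR23 mouse 15 (r = 0.864). Il22ra2 did not pass without hIgG1 mouse 4 or 8 or αChemR23 mouse 9, 10, 14, 15 or 16, with r down to 0.747 without mouse 14. In the group comparison, with the neutrophil score as a covariate, 0 of the 20 genes and 72 of all 657 (65 without it) had an unadjusted p under 0.05, and the difference of Il11ra1 was -0.31, against -0.36 without the covariate.

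**Figure D5:**
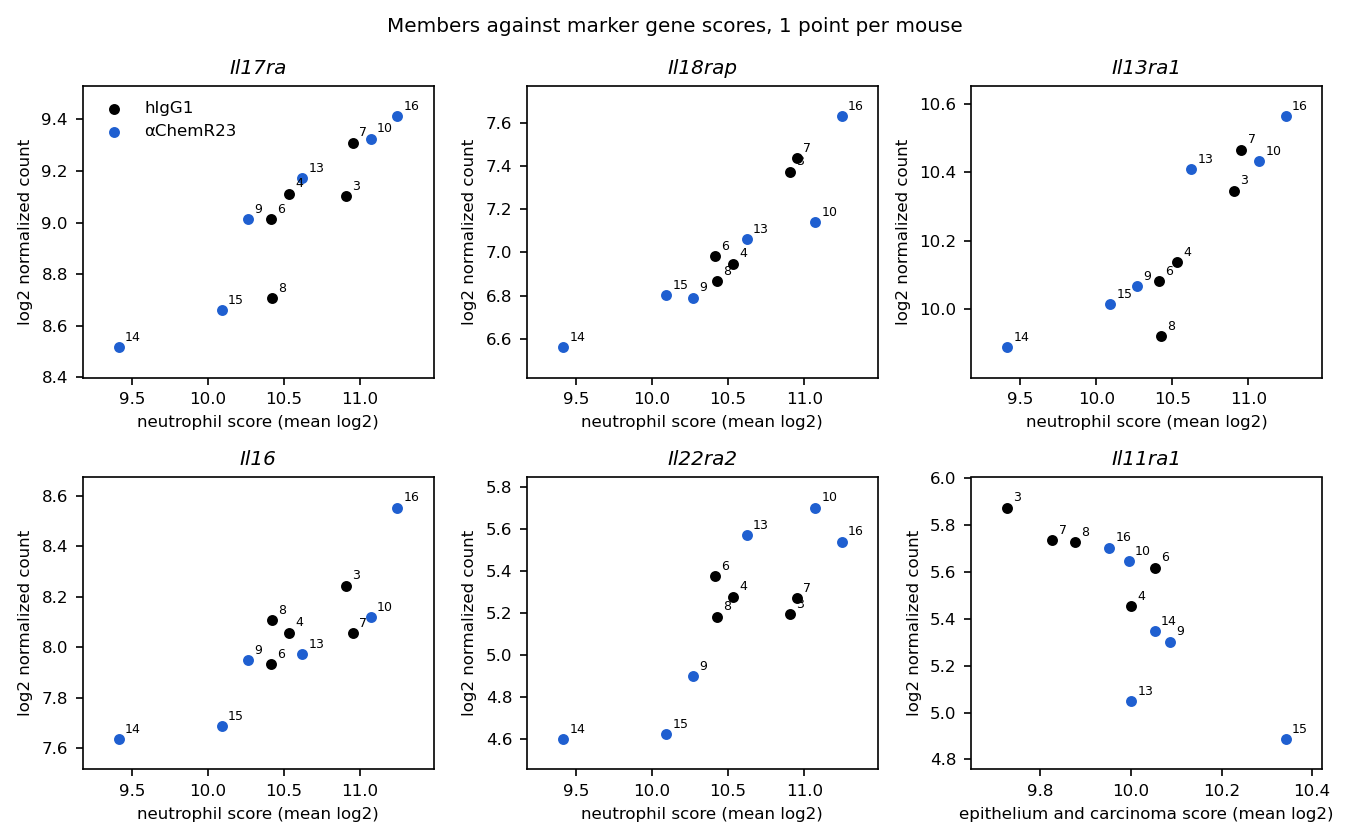
Level of 6 genes (y axis, log2 normalized counts) against a marker score (x axis, mean log2 value of the marker genes), 1 point per mouse with its number, hIgG1 black and αChemR23 blue. Il17ra, Il18rap, Il13ra1, Il16 and Il22ra2 rise from αChemR23 mouse 14 toward αChemR23 mice 10 and 16 on the neutrophil score, and Il11ra1 falls toward αChemR23 mouse 15 on the epithelium and carcinoma score.

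Of the genes that ran with the neutrophil score, promoter sequences of Il18rap, Il13ra1 and Il16 were compared. The windows ran from 250 bases before to 50 bases after the gene start in RefSeq (build GRCm38.p6). Il17ra and Il22ra2 had no such window in the promoter set used. Of the 41 genes, 29 have an entry. The windows of Il18rap and Il13ra1 are shown because they are unlike each other, at 42.3 and 71.0% G and C. The motifs searched, on both strands, were GAGGAAG, an ETS core bound by the myeloid factor PU.1, TTGCNNAA, bound by C/EBP factors, and TTCNNNGAA, bound by STAT factors. Capitals mark matches.
Il18rap, chr1:40515112-40515411, plus strand: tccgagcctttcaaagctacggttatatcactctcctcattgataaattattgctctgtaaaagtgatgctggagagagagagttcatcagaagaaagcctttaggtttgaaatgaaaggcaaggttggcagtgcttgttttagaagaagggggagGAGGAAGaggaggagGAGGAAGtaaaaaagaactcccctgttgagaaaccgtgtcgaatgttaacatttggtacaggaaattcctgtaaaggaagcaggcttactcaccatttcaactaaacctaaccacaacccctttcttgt
Il13ra1, chrX:36111858-36112157, plus strand: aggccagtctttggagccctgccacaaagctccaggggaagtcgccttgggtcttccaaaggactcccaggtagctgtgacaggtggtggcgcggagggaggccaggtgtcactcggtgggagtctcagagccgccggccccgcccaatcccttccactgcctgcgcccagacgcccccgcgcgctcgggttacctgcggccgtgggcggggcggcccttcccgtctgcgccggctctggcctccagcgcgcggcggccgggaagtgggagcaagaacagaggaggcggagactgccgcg
Il18rap holds GAGGAAG beginning 94 and 79 bases before the start, inside a run of purines, and neither other motif, and Il13ra1 holds none of the 3 in this window. Il16 has 3 windows, of which 1 holds TTGCNNAA at 242 bases before its start. Il11ra1, whose relation with the neutrophil score did not pass (r = 0.548), holds GAGGAAG at 62 bases before the start in 1 of its 2 windows. The motif GAGGAAG was found in 13.6% of 32851 promoter windows of this length and in 4 of the 37 windows of the 41 genes, TTGCNNAA in 10.8% and in 7, and TTCNNNGAA in 8.30% and in 5. A match is a run of letters and not a measured site.

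Outside the neutrophil score, 2 relations passed. Il11ra1 had r = -0.836 with the epithelium and carcinoma score (permutation p = 0.000490, adjusted p = 0.0196) and rho = -0.909 (permutation p = 0.000270, adjusted p = 0.0108), and r was -0.602 with the 2 mice most distant from the median score left out. The permutations mixed mice of both treatments. With the group means removed r was -0.749, and within the 6 αChemR23 mice it was -0.751 (unadjusted exact permutation p = 0.0458). The summed level of the 4 markers was 4868 to 6031 normalized counts in hIgG1 and 5559 to 7016 in αChemR23 mice. αChemR23 mouse 15 was the highest in the marker score and the lowest in Il11ra1, and without it r was -0.702 (adjusted permutation p = 0.355). It did not pass without hIgG1 mouse 3 or hIgG1 mouse 8 (r = -0.825) either, nor with equal medians (r = -0.697) or quantile normalization (r = -0.726). Of all tested genes outside the list, 1.99% had an r of -0.8 or lower. Il12a had r = 0.848 with the B cell score (permutation p = 0.00118, adjusted p = 0.0270) and rho = 0.80 (permutation p = 0.00477, adjusted p = 0.109), and r was 0.728 with the 2 mice most distant from the median score left out. With the group means removed r was 0.770, and within the 6 αChemR23 mice it was 0.796 (unadjusted exact permutation p = 0.103). The 6 B cell markers in the table, 4 of them tested, summed to 249 to 355 normalized counts in hIgG1 and 293 to 643 in αChemR23 mice, with up to 2 of them at the lowest value of a mouse, and 0.919% of the tested genes outside the list had an r of at least 0.8. Il12a did not pass by rank, with equal medians (r = 0.843) or quantile normalization (r = 0.822), or without any of hIgG1 mice 3, 4, 6 and 8 and αChemR23 mice 9, 10, 14 and 15 (r = 0.803 to 0.853). The part of these cell types in the group differences of Il11ra1 and Il12a was not tested.
Of the 20 genes, 0 passed with the T cell, NK cell, macrophage, mast cell or endothelial markers. Their r ranged from -0.522 to 0.615 with T cells, -0.357 to 0.664 with NK cells, -0.484 to 0.385 with macrophages, -0.351 to 0.459 with mast cells and -0.512 to 0.449 with the endothelium. The eosinophil list and the list of erythroid and platelet genes had fewer than 3 tested genes and gave no relation. Il7r had r = 0.615 with the T cell score (permutation p = 0.0368, adjusted p = 0.588) and rho = 0.746 (permutation p = 0.0113, adjusted p = 0.200), and r was 0.794 with the 2 mice most distant from the median score left out. Il7r did not pass. Within the 6 αChemR23 mice its r was 0.887 (unadjusted exact permutation p = 0.0222) and its rho 0.60 (unadjusted exact permutation p = 0.242). The T cell score of hIgG1 mouse 8, at 7.08, stood apart from all other mice (5.18 to 6.07). Each r with this score over the 11 mice thus leans on that mouse.

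The partners of these genes were described from a list of 35 genes of shared receptor chains, kinases, STAT factors, adaptors and T helper factors, of which 34 are in the table and 33 were tested. Of these, αChemR23 had the higher mean for 19 and the lower mean for 14 (median 0.04), 0 passed an adjusted p of 0.05 by limma, and 1 higher and 2 lower genes had an unadjusted p under 0.05. Over all tested genes the mean was higher for 57.4%, and 9.89% had such an unadjusted p (7.15% higher and 2.74% lower). Gata3, the factor of Th2 and innate lymphoid cells, was at 6.68 ± 0.12 log2 normalized counts with hIgG1 (n = 5) and 7.08 ± 0.19 with αChemR23 (n = 6) (SD, limma adjusted p = 0.239). Stat4, which carries the IL-12 signal, was at 5.18 ± 0.35 and 4.79 ± 0.15 (SD, limma adjusted p = 0.483). Stat2, of interferon signaling, was at 8.79 ± 0.12 and 8.58 ± 0.09 (SD, limma adjusted p = 0.483). Of the Th2 cytokines, Il4 and Il13 were above the lowest value in 1 and 3 of the 11 mice and Il5 in 8, and these were not tested.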

How the data were processed

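Expression in lung was measured on the nCounter platform in 11 mice (5 hIgG1, 6 αChemR23), grouped by the sample labels, which give 5 and 6 mice although the series text counts them otherwise. The deposited values are log2 normalized counts that the authors made with nSolver, with background, positive control and housekeeping settings not given in the sources used here. DESeq2, named in the submitters' processing notes, needs raw counts and was not used. Genes with low counts are listed at 1 lowest value per mouse. Below 60 normalized counts, all other values were whole multiples of 1 step per mouse (within 0.1), which gave raw counts of 590735 to 680599 per mouse. This precision covers counting error only. Depth limits weak genes: 10 of the 20 tested genes had a mean under 64 raw counts.

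The 657 of 770 genes averaging 20 normalized counts or more were fitted with limma 3.58.1 in R 4.3.3 (trend, two-sided, Benjamini-Hochberg over all 657 genes), checked on simulated data. Nothing in the labels says whether the RNA samples were handled in batches. Marker scores were means of log2 values of tested markers, and relations were tested two-sided with 100000 permutations, adjusted over 160. Values per mouse are given for the 12 tested genes with the smallest unadjusted p and the 6 highest genes, and partner genes at an unadjusted p under 0.05 are named. Genes may stand in several role groups. The genes, lists and tests were chosen with earlier results of these data known. The alternatives dropped the filter, raised it to a mean of 50, and used log2(value + 10), equal medians, quantile normalization, 1 common lowest value, limma voom on recovered counts, an exact Mann-Whitney test and each mouse left out. The neutrophil score as a covariate, and the relations under other scalings, were added after seeing the data.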

Additional observations from a re-analysis of the deposited data

Results flagged for a closer look

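Of 40 groups of values (the 20 tested genes in each treatment), 2 had an extreme mouse, and by chance about 1 in 20 groups would. Il7, the lymphocyte survival factor, was at 4.44 log2 normalized counts in αChemR23 mouse 13, while the other αChemR23 mice lay between 5.22 and 5.64. Il1rl2, the IL-36 receptor, was at 5.27 in αChemR23 mouse 15, while the other αChemR23 mice lay between 5.68 and 5.86, and hIgG1 mice 3 and 8 were as low, at 5.27 and 5.33.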

How the results depend on the processing

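No paired analysis was possible because mouse numbers do not repeat across treatments. Of the 20 genes and of the partner genes, 0 passed an adjusted p of 0.05 under each alternative and with each mouse left out. Over all tested genes, 1 passed with quantile normalization, 1 with the neutrophil score as a covariate, 3 without αChemR23 mouse 10, and 0 in the other fits. The 1 gene at an unadjusted p under 0.05, Il11ra1, averaged 45.7 normalized counts. A minimum mean of 50 left it out, and 0 of the remaining 12 genes had such a p. The count also became 0 with quantile normalization, the neutrophil score as a covariate or the exact Mann-Whitney test. It was 0 to 3 over the fits that each left out a mouse (3 without αChemR23 mouse 16, 2 without αChemR23 mouse 10, and 0 without any of hIgG1 mice 3, 6, 7 and 8 and αChemR23 mice 9, 13 and 15). The 7 genes with a higher mean became 15 of 41 without a filter, 3 of 12 with a minimum mean of 50, and 4 to 10 over such fits (4 without hIgG1 mouse 8). Without a filter the 21 weak genes entered, whose values at the lowest value of a mouse are limits and not levels. For Il24, at that value in all 11 mice, the difference is one of limits only. Of the 20 genes, 10 kept their direction throughout. Equal medians turned Il18r1 (0.0007) and Il10ra (0.004), and the covariate turned Il22ra2 (0.0092), Il3ra (0.0015), Il17ra (0.0693), Il10ra (0.0279) and Il21r (-0.0139). With a mouse left out, the log2 difference ran from -0.0102 to 0.2383 for Il25, -0.2144 to 0.0066 for Il22ra2, -0.0132 to 0.2276 for Il7, -0.0282 to 0.1078 for Il13ra1, -0.1263 to 0.0332 for Il3ra, -0.1183 to 0.0672 for Il17ra, -0.068 to 0.1165 for Il1rl2, -0.0696 to 0.0547 for Il18r1, -0.1022 to 0.0414 for Il10ra and -0.1281 to 0.0904 for Il21r. Their median difference ran from -0.0928 to 0.0005417. The 7 relations with marker scores became 2 with equal medians, 2 with quantile normalization, and 3 to 7 over such fits (3 without αChemR23 mouse 15, 4 without hIgG1 mouse 3 or 8). Apart from genes that a filter adds or removes, the cause of these changes was not tested.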
